A study of Mus musculus with 12 samples.

Results

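The comparison described here is that of cultured mouse keratinocytes deficient in Atg7 with their autophagy-competent counterparts in the absence of paraquat. It sets against each other 6 of the 12 arrays of the study, chosen by their titles and by the agent given in the labels, with 3 arrays per genotype. Both genotypes carried Atg7 alleles flanked by recombination sites (Atg7 f/f). The cells called wt lacked the K14::Cre recombinase and those called KO carried it, so the groups differ in the presence of Cre as well as in Atg7. K14 is a keratin gene of basal keratinocytes, and its promoter drives the recombinase. In which cells of these cultures the recombinase had acted was not measured. All cells were grown in KGM-2 medium, were sham treated, and gave RNA after 48 h. The other 6 arrays hold the same genotypes after 20 µM paraquat, which generates superoxide inside cells by redox cycling, and entered the same fit, so they share in the estimate of the spread behind every SE and p-value below. The labels give neither strain, age or sex of the donor mice nor the number of animals that gave cells. The labels call the arrays biological triplicates without tying them to animals, so p-values measure the spread between these arrays.

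Autophagy delivers cytoplasm, organelles and protein aggregates to the lysosome, where they are broken down and their amino acids returned. ATG7 is the E1-like enzyme that activates ATG12 and the LC3 and GABARAP proteins, and no LC3 lipidation takes place without it. ATF4 is a transcription factor whose mRNA is translated when eIF2 is phosphorylated, as happens when amino acids run short or the endoplasmic reticulum is stressed, and it drives genes for amino acid uptake, amino acid synthesis and tRNA charging. In the epidermis, basal keratinocytes divide, and on leaving the basal layer they stop dividing and build the cornified envelope.

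Values are RMA signals from Affymetrix arrays, with the most intense of a gene's probe sets standing for it, over 22180 genes. Signals of different genes are not comparable, so a level is compared only between arrays, and differences are given as log2 of KO over wt with the standard error (SE) of the fit. A change is called at a limma adjusted p under 0.05 over all 22180 genes. The median signal per array was 42 to 45. The first principal component of the 6 sham arrays held 52.2% of their variance and separated the genotypes. The array wt sham 2 lay at -31.6 on it, beyond wt sham 1 at -9.78 and wt sham 3 at -18.7, and the KO arrays lay between 17.5 and 22.6. Many counts are given with and without wt sham 2, but a count given once was not always the same without that array. The array KO sham 3 read 2104 for Xist, the RNA that silences an X chromosome, against 13 to 73 on the other 5 sham arrays, and 27 for the Y-linked gene Eif2s3y against 504 to 569. KO paraquat 3 was alike, at 1553 and 23. The labels give no sex for any array. Xist and Eif2s3y were chosen after their values were seen.

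Keratinocyte markers were strongly expressed in both genotypes. Of 13 keratinocyte markers, 12 read above the highest array median on all 6 sham arrays. Limma called 1 of the 13, lower in KO, and the median log2 difference of the list was -0.09. Krt14, the basal keratin whose promoter drives the Cre, read 10889, 10954 and 10806 in wt and 10956, 10895 and 11102 in KO arrays, and these ranges overlap. The summed signal of 18 fibroblast markers was 1084 to 1246 in wt and 1259 to 1376 in KO arrays, and 5 of the 18 read above the highest array median on all sham arrays. Such a sum mostly follows its brightest members. By log2 difference 8 of the 18 lay above 0 and 10 below, with a median of -0.02. Limma called 2 of them higher, and 1 when any 1 sham array was left out. The summed signal of 17 markers of hair follicle, sebaceous and Merkel cells was 2545 to 2880 in wt and 1932 to 2070 in KO arrays. Of these 17, the 1 gene called was Sox9, a hair follicle regulator, at -0.58. The log2 differences of the 17 lay above 0 for 8 and below 0 for 9, with a median of -0.08. The sums of the melanocyte, leukocyte and endothelial lists differed less, at 541 to 637 against 591 to 646, at 1004 to 1063 against 1015 to 1105, and at 524 to 542 against 552 to 578. Whether the fibroblast and hair follicle markers have a part in the results below was not tested. In bulk RNA, fewer cells of a kind and less RNA per cell cannot be told apart.

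Atg7 itself was lower in every KO array. Its signal was 293, 356 and 286 in wt and 105, 111 and 103 in KO arrays, a log2 difference of -1.55 ± 0.13 (SE) with a limma adjusted p of 2.8e-05. The lowest wt array read above the highest KO array by a wide margin. An exact 2-sided permutation test of the 3 against 3 arrays gave p = 0.1, the smallest this design allows. The position of the probe set relative to the deleted part of the gene was not known here.

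Without paraquat, 2273 genes (10.2% of those tested) differed between the genotypes. Of these, 1016 (4.58%) were higher and 1257 (5.67%) lower in KO, and the median log2 difference over all genes was -0.01. At least 2-fold changes were fewer, with 133 genes (0.6%) higher and 91 (0.41%) lower. The 3 KO arrays read above the 3 wt arrays for 2231 genes (10.1%) and below them for 2799 (12.6%), called or not. Without wt sham 2, 1418 genes (6.39%) were called, with 651 (2.94%) higher and 767 (3.46%) lower. Of the 2273 genes, 1328 were called again without wt sham 2. All 2273 kept their sign, but 2247 of them had arrays that do not overlap between the genotypes. For those, leaving out 1 array cannot change the sign. Without KO sham 2, 1494 genes were called, and without KO sham 3, 836 were higher and 885 lower. Fitted on the 6 sham arrays alone, with fewer degrees of freedom, the comparison called 976 genes.

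**Figure D1:**
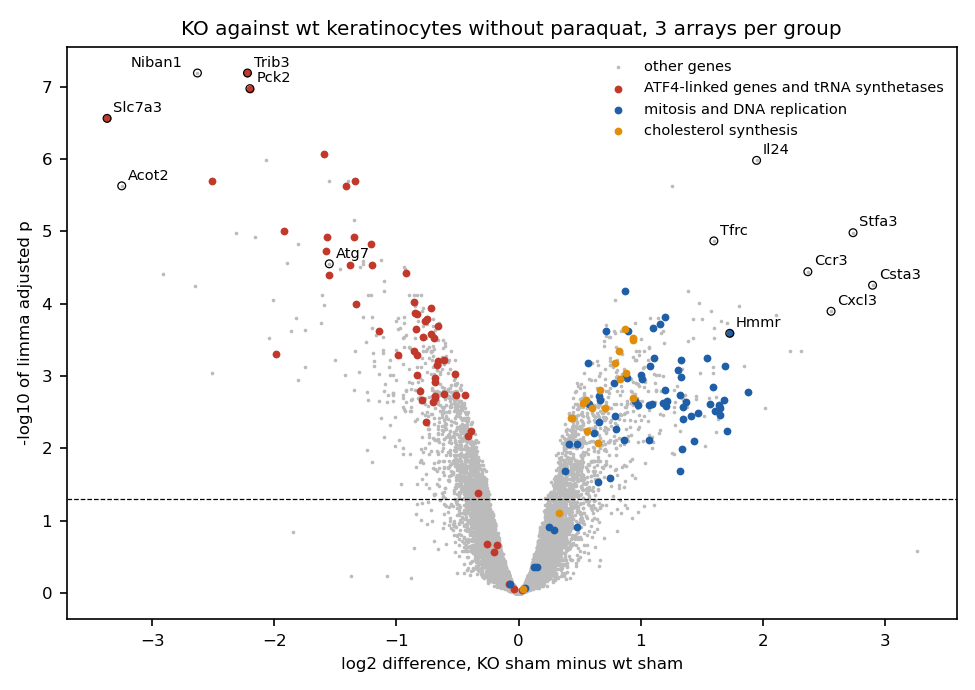
Each point is 1 of the 22180 genes, with the log2 difference KO sham minus wt sham on the x axis and -log10 of the limma adjusted p on the y axis, 3 arrays per group; the dashed line marks an adjusted p of 0.05. The ATF4-linked genes and tRNA synthetases (red) lie on the left, with Slc7a3 at -3.37 and Trib3 at -2.22, and the genes of mitosis and DNA replication (blue) and of cholesterol synthesis (orange) lie on the right.

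The genes known as targets of ATF4 were lower in KO cells as a group. Of 58 measured members of 4 such lists, covering stress and feedback factors, amino acid transporters, amino acid and folate enzymes, and tRNA synthetases with the tRNA exporter Xpot, 52 fell and 0 rose. In 46 of the 58 (79.3%), all 3 wt sham arrays read above the other 9 arrays of the study, against 5.13% of all genes.

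Many of these genes carry the binding motif of C/EBP and ATF4 dimers near their start. The letters TGATGNAA, on either strand, were found in the window from 250 bases before to 50 bases after the start of 17 of the 45 members with a RefSeq window (37.8%), against 666 of 16990 measured genes (3.92%). By list these were 8 of 17 stress factors, 2 of 7 transporters, 3 of 13 enzymes and 4 of 8 synthetases. A match is a description of the sequence and not a shown binding site. The lists were made of known ATF4 targets, and that choice by itself can raise the share. Stretches of 8 of these promoters, of genes that fell, are printed from RefSeq (mouse GRCm38.p6), 5′ to 3′ on the gene's strand. The motif is in capitals to show where it stands. All stretches end before the annotated start, outside the transcribed gene. They lie at chr2:119351009-119351096 on the plus strand for Chac1, at chr7:126625533-126625620 on the minus strand for Nupr1, and at chr7:45615582-45615669 on the minus strand for Fgf21. Those of Jdp2 and Slc7a11 lie at chr12:85599343-85599415 (plus) and chr3:50443614-50443700 (minus). Those of Asns, Pck2 and Gars lie at chr6:7693210-7693272 (minus), chr14:55540123-55540210 (plus) and chr6:55037931-55038000 (plus).
Chac1: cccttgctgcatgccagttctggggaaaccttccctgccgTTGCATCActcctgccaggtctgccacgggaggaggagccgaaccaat
Nupr1: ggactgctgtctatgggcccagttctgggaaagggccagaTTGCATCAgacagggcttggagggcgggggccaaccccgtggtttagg
Fgf21: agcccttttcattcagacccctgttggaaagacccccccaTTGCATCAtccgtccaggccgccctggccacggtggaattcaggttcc
Jdp2: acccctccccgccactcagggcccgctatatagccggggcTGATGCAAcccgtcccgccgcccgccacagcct
Slc7a11: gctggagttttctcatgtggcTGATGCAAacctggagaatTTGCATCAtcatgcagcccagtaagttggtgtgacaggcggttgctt
Asns: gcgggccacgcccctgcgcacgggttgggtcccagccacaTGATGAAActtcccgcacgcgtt
Pck2: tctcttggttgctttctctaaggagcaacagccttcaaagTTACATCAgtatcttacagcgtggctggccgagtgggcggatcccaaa
Gars: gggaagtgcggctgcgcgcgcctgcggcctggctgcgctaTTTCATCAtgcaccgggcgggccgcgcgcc
The Slc7a11 stretch holds 2 copies of the motif, 1 on each strand, and the other 7 hold 1 each.

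Among the stress and feedback factors, 18 of 19 fell and 0 rose, with a median log2 difference of -0.85. Atf4 itself fell least of the 18. It read 2916, 3242 and 3066 in wt and 2316, 2370 and 2365 in KO arrays, a log2 difference of -0.39 ± 0.08 (SE). Trib3, a pseudokinase that feeds back on ATF4, read 536, 624 and 655 in wt and 129, 130 and 130 in KO arrays, a log2 difference of -2.22 ± 0.10 (SE) with a limma adjusted p of 6.44e-08. The 3 KO arrays were nearly equal and the wt arrays more than 4 times as high. Fgf21, a secreted stress hormone, read 89, 240 and 128 in wt and 39, 35 and 32 in KO arrays. Wt sham 2 was the highest of its group for Fgf21, and the KO arrays lay under the median of all probe sets. Chac1, which degrades glutathione, read 257, 385 and 317 in wt and 123, 114 and 126 in KO arrays. Ddit3, the death-linked factor CHOP, read 266, 360 and 336 in wt and 180, 135 and 169 in KO arrays. For both genes the wt and KO arrays did not overlap, and the log2 differences were -1.38 and -0.99. Atf5 (-1.58), the secreted glycoprotein gene Stc2 (-1.57), the AP-1 repressor gene Jdp2 (-1.33) and the mTORC1 inhibitor gene Sesn2 (-1.21) also fell. Atf3, a stress factor that other pathways induce too, was the exception at -0.04, with 1221, 1291 and 1467 in wt and 1424, 1169 and 1268 in KO arrays.

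Of the amino acid transporters, 8 of 11 fell and 0 rose (median -0.75). Slc7a3, a carrier of cationic amino acids, had the largest fall of all called genes. It read 273, 523 and 391 in wt and 39, 34 and 38 in KO arrays, a log2 difference of -3.37 ± 0.17 (SE) with a limma adjusted p of 2.73e-07. The KO signals lay under the median of all probe sets, so the size of the fall depends on a level not shown to be above background. Slc7a5, the large neutral amino acid exchanger LAT1, read 2830, 3208 and 3289 in wt and 971, 1005 and 1130 in KO arrays. Its partner Slc3a2 read 2446, 2876 and 2827 in wt and 1654, 1532 and 1659 in KO arrays. The heavy chain thus differed by -0.75 and the light chain by -1.59, both without overlap of arrays. Slc7a11, the cystine importer, fell by 1.35 and the neutral amino acid carriers Slc1a4 and Slc1a5 by 1.20 and 0.83. The glutamine carriers Slc38a1 and Slc38a2 and the exporter Slc43a1 did not pass the test, at -0.08, -0.18 and 0.03.

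Enzymes of amino acid and mitochondrial folate metabolism fell in 14 of 15 cases and rose in 0 (median -0.84), and 13 of the 15 fell without wt sham 2. Aldh1l2, the mitochondrial formyl-tetrahydrofolate dehydrogenase, read 234, 385 and 350 in wt and 62, 57 and 48 in KO arrays. Pck2, the mitochondrial phosphoenolpyruvate carboxykinase, read 704, 697 and 790 in wt and 184, 142 and 153 in KO arrays. Cth, which makes cysteine from cystathionine, read 1049, 1744 and 1474 in wt and 400, 370 and 334 in KO arrays. These 3 enzymes differed by -2.51, -2.20 and -1.92. In the serine pathway Psph (-1.55), Phgdh (-0.76) and Psat1 (-0.68) fell, as did the mitochondrial folate enzymes Mthfd2 (-1.41), Shmt2 (-0.92) and Mthfd1l (-0.81). The proline enzyme Aldh18a1 fell by 1.34 and Asns, asparagine synthetase, by 0.69. Cbs, which acts just before Cth, was the member not called, at -0.20.

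Of 13 genes of tRNA charging, the exporter gene Xpot among them, 12 fell and 0 rose (median -0.67). Gars, the glycyl-tRNA synthetase, read 3134, 3532 and 3252 in wt and 2083, 1938 and 1978 in KO arrays. Xpot read 1005, 1193 and 1190 in wt and 628, 632 and 606 in KO arrays. The groups lay apart for both, at -0.72 and -0.86, and the 1 gene not called was Vars at -0.26. Among 6 other cytosolic synthetases 1 fell, Rars at -0.59, and among 16 mitochondrial ones limma called 0, with 3 at an unadjusted p under 0.05. Genes upstream of ATF4 were not called more often than genes at large. Of 14 genes for eIF2 kinases, eIF2 and eIF2B subunits and phosphatase regulators 0 fell and 1 rose, the double-stranded RNA kinase Eif2ak2 at 0.67. Over all genes 10.2% were called in either direction, so so small a count is not particular to this list. Limma gave 5 of the 14 an unadjusted p under 0.05, and 10 had a difference above 0, against 10467 of all 22180 genes. Tested for a change above 1.5-fold, 0 of the 13 genes of tRNA charging were called, against 7 stress factors, 4 transporters and 6 enzymes.

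**Figure D2:**
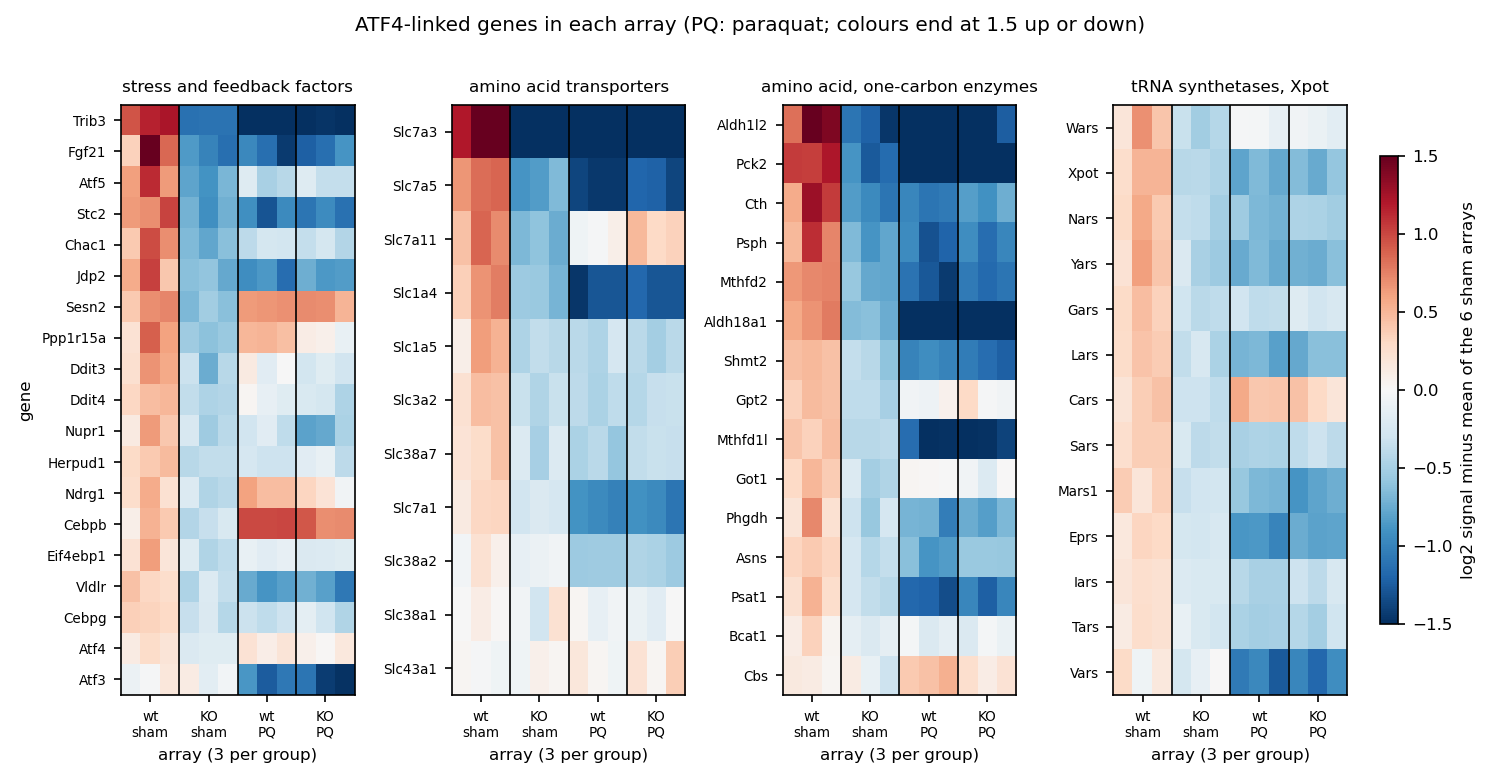
Rows are genes of the 4 ATF4-linked lists, columns are the 12 arrays in groups of 3, and colour is the log2 signal minus the mean of the gene's 6 sham arrays, with the scale ending at 1.5 in either direction. The 3 wt sham columns are red and the KO sham columns blue for nearly all genes, with Atf3 (-0.04), Slc38a1 (-0.08) and Slc43a1 (0.03) as pale rows.

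Several of the largest falls lay outside these lists. Acot2, a mitochondrial acyl-CoA thioesterase, read 1891, 4427 and 3075 in wt and 345, 304 and 287 in KO arrays, a 9.49-fold difference with a limma adjusted p of 2.34e-06. Acot1, its close cytosolic relative, read 82, 125 and 83 in wt and 85, 76 and 81 in KO arrays and was not called; it was chosen after its values were seen. Niban1, a stress-induced protein, read 810, 937 and 947 in wt and 157, 126 and 154 in KO arrays, a log2 difference of -2.63 ± 0.11 (SE). B4galnt2, a glycosyltransferase, read 135, 380 and 248 in wt and 26, 33 and 35 in KO arrays. Reep6, a shaper of endoplasmic reticulum membranes, read 1123, 2193 and 1470 in wt and 316, 318 and 296 in KO arrays. For all of these called genes the lowest wt array exceeded the highest KO array by more than 3 times. The remaining falls among the 15 largest were Fam171b (-2.65), the secreted carbonic anhydrase Car6 (-2.51), Heg1 (-2.16), Cyb5r1 (-2.07), Slc43a3 (-2.04) and Rgn (-2.01). In 5 of the 15 the KO mean lay under the highest array median.

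Genes of cell division were higher in KO cells. Of 35 genes of mitosis 34 rose and 0 fell, with a median log2 difference of 1.35, and for all 35 the 3 KO arrays read above the 3 wt arrays. The spread lay in the wt group, where 34 of the 35 had their lowest sham signal on wt sham 2. Without that array 34 still rose, with a median of 1.01. The mean log2 of the list had an SD of 0.588 over the wt sham arrays. It was 0.0169 over the KO sham, 0.0727 over the wt paraquat and 0.191 over the KO paraquat arrays. Because the fit pools these 4 groups, the SEs behind these calls can understate the spread of the wt sham arrays. Cdk1, the kinase that starts mitosis, read 293, 97 and 197 in wt and 589, 554 and 569 in KO arrays. Its log2 difference was 1.68 ± 0.28 (SE), and 1.25 without wt sham 2. Mki67, the proliferation antigen, read 1239, 369 and 969 in wt and 1671, 2105 and 1980 in KO arrays. Kif11, a spindle motor, read 299, 81 and 221 in wt and 585, 560 and 571 in KO arrays. Top2a, which untangles chromosomes, read 479, 167 and 370 in wt and 733, 791 and 820 in KO arrays. The KO arrays were close to each other for all 4 genes, and wt sham 1 was the nearest of the wt arrays to them. Kif20a (1.88), Hmmr (1.73), the kinetochore scaffold Knl1 (1.69), Ttk (1.65), Ccnb2 (1.65), Plk1 (1.61) and Bub1b (1.59) rose most besides these. Outside the list, the cytokinesis genes Cep55 (1.85) and Shcbp1 (2.02) and the mitotic gene Depdc1a (2.22) were among the 15 largest rises. Bub3 was the member not called, at 0.25. Tested for a change above 1.5-fold, 1 of the 35 was called.

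The promoters of these genes are rich in the cell cycle homology element. The letters TTTGAA, on either strand, stood in 25 of the 31 mitosis genes with a RefSeq window (80.6%), against 3019 of 16990 measured genes (17.8%). A match is again a description only, and the choice of known mitosis genes can by itself raise the share. Stretches of 5 of these promoters, all ending before the annotated start, are printed from RefSeq (mouse GRCm38.p6) on the gene's strand with the element in capitals, because the element stands close to the start. They lie at chr10:69352913-69352967 (minus) for Cdk1, chr4:118437344-118437401 (minus) for Cdc20 and chr19:37376323-37376381 (plus) for Kif11. Those of Top2a and Espl1 lie at chr11:99024190-99024252 (minus) and chr15:102296226-102296292 (plus).
Cdk1: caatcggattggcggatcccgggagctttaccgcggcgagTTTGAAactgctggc
Cdc20: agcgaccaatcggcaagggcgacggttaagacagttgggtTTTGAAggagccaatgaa
Kif11: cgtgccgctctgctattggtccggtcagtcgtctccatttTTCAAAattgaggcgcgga
Top2a: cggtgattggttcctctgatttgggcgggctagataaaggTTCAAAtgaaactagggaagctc
Espl1: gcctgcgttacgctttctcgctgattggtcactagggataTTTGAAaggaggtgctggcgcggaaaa
Cdc20, the activator of the anaphase-promoting complex, rose by 1.20 and Espl1, the separase gene, by 0.58.

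DNA replication genes rose in 26 of 32 cases and fell in 0 (median 0.76), with 24 rising without wt sham 2. Here too the list mean spread most in wt sham, with an SD of 0.225 against 0.0428 to 0.111 in the other groups. Mcm4, a subunit of the replicative helicase, read 564, 350 and 470 in wt and 1066, 1045 and 1010 in KO arrays, a log2 difference of 1.20 ± 0.13 (SE). Rrm2, the regulated subunit of ribonucleotide reductase, read 471, 320 and 411 in wt and 903, 865 and 876 in KO arrays. Pcna, the polymerase clamp, read 1106, 1049 and 991 in wt and 1737, 1705 and 1729 in KO arrays. These genes showed no overlap of arrays, and for Pcna wt sham 2 did not stand apart. The factor E2f1 (0.15), Cdt1 (0.13) and Gins2 (0.05) were not called. Of 22 DNA repair genes 15 rose and 0 fell (median 0.66), among them Fancd2 (0.98), Blm (1.07), Brca1 (0.76) and the histone variant H2ax (1.15). Without wt sham 2 the count was 10, and on the 6 sham arrays alone it was 6. Of 11 histone genes 4 rose, led by the linker histone H1f5 at 1.5. Lmnb1, the lamin lost in senescent cells, read 245, 150 and 204 in wt and 344, 431 and 376 in KO arrays, a log2 difference of 0.96. The CDK inhibitor Cdkn1a read 4226, 5116 and 4207 in wt and 3972, 3431 and 3206 in KO arrays, a log2 difference of -0.35 with a limma adjusted p of 0.0388. That call was lost without wt sham 2 (adjusted p 0.148), without KO sham 2 (0.114) and without KO sham 3 (0.137).

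**Figure D3:**
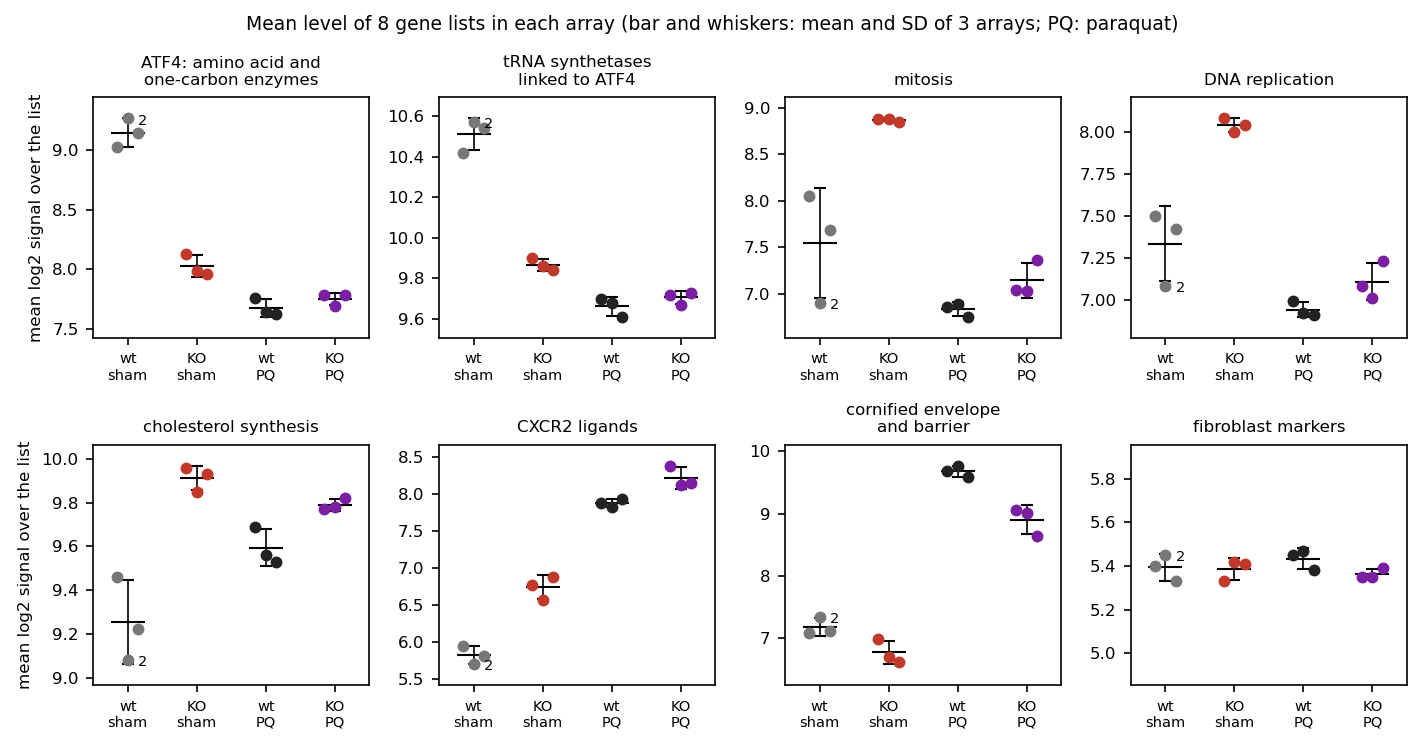
Each panel gives the mean log2 signal over the measured members of 1 gene list in each of the 12 arrays, with points for arrays and a bar with whiskers for the mean and SD of 3 arrays; the vertical axes do not start at 0, and wt sham 2 is marked. The mitosis list averaged 8.05, 6.90 and 7.69 in the wt sham arrays and 8.88, 8.88 and 8.85 in the KO sham arrays, and the enzyme list 9.03, 9.27 and 9.15 against 8.13, 7.98 and 7.96.

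Transcripts of cholesterol synthesis genes were also higher in KO cells. Of 19 measured members 17 rose and 0 fell (median 0.67), and the same count of 17 was reached without wt sham 2. Hmgcs1, the first committed enzyme of the mevalonate pathway, read 2714, 2059 and 2078 in wt and 4107, 4107 and 3824 in KO arrays, a log2 difference of 0.82 ± 0.11 (SE). Cyp51, a sterol demethylase, read 1235, 855 and 1078 in wt and 1995, 1952 and 2068 in KO arrays. Insig1, the sterol-dependent retention factor of SREBP, read 918, 657 and 666 in wt and 1526, 1371 and 1369 in KO arrays. All 3 genes were separated between genotypes, and the rises were under 2-fold. Srebf2, the gene of the factor that drives the pathway, was at 0.04 and Tm7sf2 at 0.33, neither called. Tested for a change above 1.5-fold, 0 of the 19 were called. The fatty acid and phospholipid list did not move as 1 group, with 7 of 27 higher and 5 lower. Elovl6, the elongase of palmitate, read 531, 295 and 410 in wt and 1217, 1184 and 1185 in KO arrays. Fads2 (1.12), Acly (0.75), Scd1 (0.66) and Acaca (0.56) rose too. The triglyceride and lipid droplet genes Dgat2 (-1.01) and Plin2 (-0.73), the very long chain elongase Elovl4 (-0.73) and Fads3 (-0.70) fell. The count of falls was 3 without wt sham 2, the same number as without KO sham 3, and the fall of Elovl4 was not called without wt sham 2 (adjusted p 0.15).

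Transcripts of neutrophil-attracting chemokines were higher in KO cells. Of 6 ligands of CXCR2, 4 rose and 0 fell, also without wt sham 2. Cxcl3 read 31, 14 and 29 in wt and 141, 109 and 169 in KO arrays, a log2 difference of 2.56 whose size rests on wt signals under the array median, not shown to be above background. Cxcl1 read 684, 578 and 674 in wt and 1155, 1048 and 1250 in KO arrays, and Cxcl5 read 37, 52 and 39 against 116, 99 and 118. Cxcl2 rose by 0.76, while Cxcl15 (-0.03) and Ppbp (0.02) were not called. Of 35 other epithelial cytokines 6 rose and 4 fell. Il24, a cytokine of the IL-10 family made by keratinocytes, read 295, 264 and 278 in wt and 1256, 959 and 1027 in KO arrays, a log2 difference of 1.95 ± 0.12 (SE) with a limma adjusted p of 1.04e-06. Ccl2, which attracts monocytes, read 573, 191 and 333 in wt and 741, 739 and 940 in KO arrays. Its rise of 1.27 narrowed to 0.88 without wt sham 2 and was not called without KO sham 3 (adjusted p 0.051). Tnf (0.82), Csf2 (0.85) and Il18 (0.74) rose, and Csf2 was not called without wt sham 2 (adjusted p 0.0805). The 4 falls included 2 of larger size. Il23a, the specific subunit of IL-23, read 183, 449 and 307 in wt and 104, 70 and 92 in KO arrays, and Tslp, an alarm cytokine of epithelia, read 662, 1001 and 953 against 515, 372 and 316. Epgn (-0.45) and Btc (-0.40), ligands of the EGF receptor, made up the 4 falls, and neither was called without wt sham 2, wt sham 3 or KO sham 2, which left 2. Of 17 NF-kB genes 4 rose and 4 fell, and 1 of each was left without wt sham 2, with 1 or 2 rises left without wt sham 3 or any KO array. The interferon list held 1 call among 30, Ifitm3 at 1.03, a smaller share than the 10.2% called over all genes.

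The largest rises were stefins, inhibitors of cysteine proteases encoded by a cluster of near-identical genes. Csta3 read 35, 22 and 38 in wt and 263, 310 and 148 in KO arrays, a log2 difference of 2.90 ± 0.28 (SE) with a limma adjusted p of 5.54e-05. Stfa3 read 249, 141 and 162 in wt and 1375, 1441 and 856 in KO arrays (2.74). Both were lowest within the KO group on KO sham 3 and still apart from all wt arrays. Of the relatives, chosen after their values were seen, Stfa1 (1.49) and Stfa2l1 (1.04) rose and Csta1 (0.29), Csta2 (0.15) and Stfa2 (0.11) were not called. Probes for such copies can share signal, so which member changed is uncertain. Other large rises were the chemokine receptor gene Ccr3 (2.37), the chloride channel regulator gene Clca3a2 (2.31), the metalloreductase gene Steap4 (2.11) and the prolactin family genes Prl8a1 (1.81) and Prl8a9 (1.71). In 5 of the 15 largest rises the wt mean lay under the highest array median.

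Late differentiation genes were lower in KO cells, in part. Of 39 genes of the cornified envelope and barrier 11 fell and 0 rose (median -0.36), with 8 falling without wt sham 2 and 7 on the 6 sham arrays alone. Cdsn, the corneodesmosome glue, read 2065, 3253 and 2448 in wt and 874, 743 and 886 in KO arrays, a log2 difference of -1.61 ± 0.16 (SE) with a limma adjusted p of 7.63e-05. Flg, filaggrin, read 137, 177 and 174 in wt and 77, 93 and 91 in KO arrays. Lor, loricrin, read 87, 115 and 81 in wt and 59, 49 and 39 in KO arrays. Both were dim in these untreated cultures and lower in every KO array. The proteases that shed corneocytes, Klk7 (-1.03) and Klk5 (-0.73), fell together with their inhibitor Spink5 (-0.45), which was not called without wt sham 2 (adjusted p 0.0712). The small proline-rich genes Sprr1a (-0.36) and Sprr1b (0.03) were not called. Of 25 suprabasal genes 5 fell and 1 rose, and 3 fell without each of wt sham 2, wt sham 3, KO sham 1 and KO sham 3. Dsc1, the desmosomal cadherin of upper layers, read 746, 1203 and 895 in wt and 320, 366 and 252 in KO arrays (-1.59). Krt10 (-0.19), Krt1 (-0.35) and involucrin, Ivl (-0.07), which mark the start of differentiation, were not called. Among 18 basal keratin and adhesion genes 1 was called, Bcl11b at 0.44, and not without wt sham 2 (adjusted p 0.149), wt sham 3 (0.0504), KO sham 2 (0.153) or KO sham 3 (0.0598). Among junction genes, the connexin Gja1 rose by 0.96.

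Some genes of autophagy and the lysosome beyond Atg7 were lower in KO cells. Of 11 genes of ATG8 and ATG12 conjugation 3 fell, Atg7, Atg12 (-0.44) and Atg4b (-0.32), and without wt sham 2, without KO sham 2 or without KO sham 3 Atg7 was the 1 left. Of 5 LC3 and GABARAP genes limma called 0, with 2 at an unadjusted p under 0.05, and Map1lc3b read 1311, 1534 and 1228 in wt and 1421, 1166 and 1159 in KO arrays. Of 24 initiation genes 4 fell and 2 rose, and 2 and 1 without wt sham 2, KO sham 2 or KO sham 3. Ulk2, a starter kinase, was clearest at -0.68 ± 0.08 (SE). Sqstm1, the cargo receptor p62, read 1818, 2751 and 2006 in wt and 1059, 847 and 990 in KO arrays, a log2 difference of -1.17 ± 0.14 (SE) with a limma adjusted p of 0.000267. These are transcript levels, and the protein was not measured. Other receptors that fell were Calcoco1 (-0.66), the reticulum receptor Retreg1 (-0.49) and Tex264 (-0.39), the last not called without wt sham 2 (adjusted p 0.0531) or KO sham 2 (0.0535). Of 28 lysosomal genes 8 fell and 0 rose, where 5.67% of all genes fell and 4.58% rose. A difference below 0, called or not, was found for 24 of the 28, against 11555 of all 22180 genes. The lysosomal falls were led by the hexosaminidase Hexa (-0.78) and Naglu (-0.62). Without wt sham 2 or KO sham 2 the count was 3, without KO sham 1 it was 4, without wt sham 3 it was 5, and on the 6 sham arrays alone it was 2. Lamp1 (-0.15) and Ctsd (0.03) were not called. Of 31 proteasome genes 4 rose and 1 fell, and without wt sham 2 the rises were 0, with 1 left without wt sham 3 or any KO array.

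Stress pathways other than ATF4 held smaller shares of called genes than the ATF4-linked lists. Of 20 genes of the unfolded protein response 4 rose and 4 fell, and 3 fell without wt sham 2. Over all genes 4.58% rose and 5.67% fell, so both counts lay above the share over all genes. Limma gave 12 of the 20 an unadjusted p under 0.05. The sensor gene Atf6 read 710, 1006 and 872 in wt and 402, 404 and 391 in KO arrays (-1.10), and Sel1l (-0.75) and Ero1a (-0.60) fell with it. The chaperones Hsp90b1 (0.52), Dnajc3 (0.42), Creld2 (0.38) and Calr (0.32) rose, and Hspa5 (-0.22) and Xbp1 (-0.31) were not called. Of 27 NRF2 targets 4 rose and 1 fell, and 23 had a difference above 0, called or not, against 10467 of all 22180 genes. The 4 rises were Gsta4 (0.89), Nqo1 (0.83), Ugdh (0.65) and Pgd (0.44), of which Ugdh was not called without KO sham 2 (adjusted p 0.0532). The fall was that of Slc7a11, which is also in the transporter list. Nqo1 read 225, 150 and 174 in wt and 369, 321 and 281 in KO arrays. Hmox1 (-0.17), Gclm (0.06), Srxn1 (0.10) and Txnrd1 (0.07), other well-known members, were not called. The letters TGACNNNGC of the antioxidant element, on either strand, stood in 8 of 22 windows of this list (36.4%) and in 14.9% of all measured windows. Here too the choice of known targets can raise the share. Tfrc, the transferrin receptor, read 393, 254 and 316 in wt and 917, 978 and 980 in KO arrays, a log2 difference of 1.60 ± 0.13 (SE) with a limma adjusted p of 1.35e-05. Slc40a1, the iron exporter, fell by 0.67. Of 33 respiratory chain genes 3 rose and 0 fell. Leaving out each sham array gave 2 to 6 rises, with 2 without wt sham 2 and 6 without KO sham 3. Of 28 p53 targets 4 rose and 7 fell, shares that also lay above those over all genes. The rises were 2 without wt sham 2, KO sham 1 or KO sham 2, and the falls 5 without wt sham 2. Sesn2 and Bbc3 were the falls with the smallest p.

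Matrix and growth factor genes held single large changes. Of 30 genes of the extracellular matrix 4 fell and 0 rose, led by Fn1, fibronectin, with 2116, 1600 and 2237 in wt and 782, 783 and 1062 in KO arrays (-1.18). The other falls were Lox (-0.81), Tagln (-0.76) and Inhba (-0.44). Without KO sham 2, 2 of the 4 were left, and Lox was not called without wt sham 2 (adjusted p 0.0646), KO sham 1 (0.0651) or KO sham 2 (0.0586). Tagln was not called without wt sham 1 (0.106), wt sham 3 (0.0854), KO sham 2 (0.134) or KO sham 3 (0.095). Postn, periostin, read 385, 150 and 555 in wt and 19, 152 and 238 in KO arrays, so that its groups overlapped and its difference of -1.85 was not called (limma adjusted p 0.143). The proteases Mmp13 (-1.5) and Mmp9 (-0.89) fell and Plau (0.72) and Adamts1 (0.71) rose. Vegfa, the angiogenic factor, read 856, 1176 and 1067 in wt and 512, 557 and 528 in KO arrays (-0.94). Igfbp3, a binder of insulin-like growth factors, read 772, 304 and 517 in wt and 1496, 1391 and 1602 in KO arrays (1.59, and 1.24 without wt sham 2). Of 16 clock genes 6 fell and 0 rose, among them the repressor Nr1d1 (-0.77), Rora (-0.63) and Per1 (-0.40), and 2 fell on the 6 sham arrays alone. Per1 was not called without wt sham 2 (adjusted p 0.0815), KO sham 1 (0.0672) or KO sham 2 (0.0629). Of 25 ribosomal proteins and 14 genes of MHC class I presentation limma called 0, with 0 and 3 at an unadjusted p under 0.05.

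**Figure D4:**
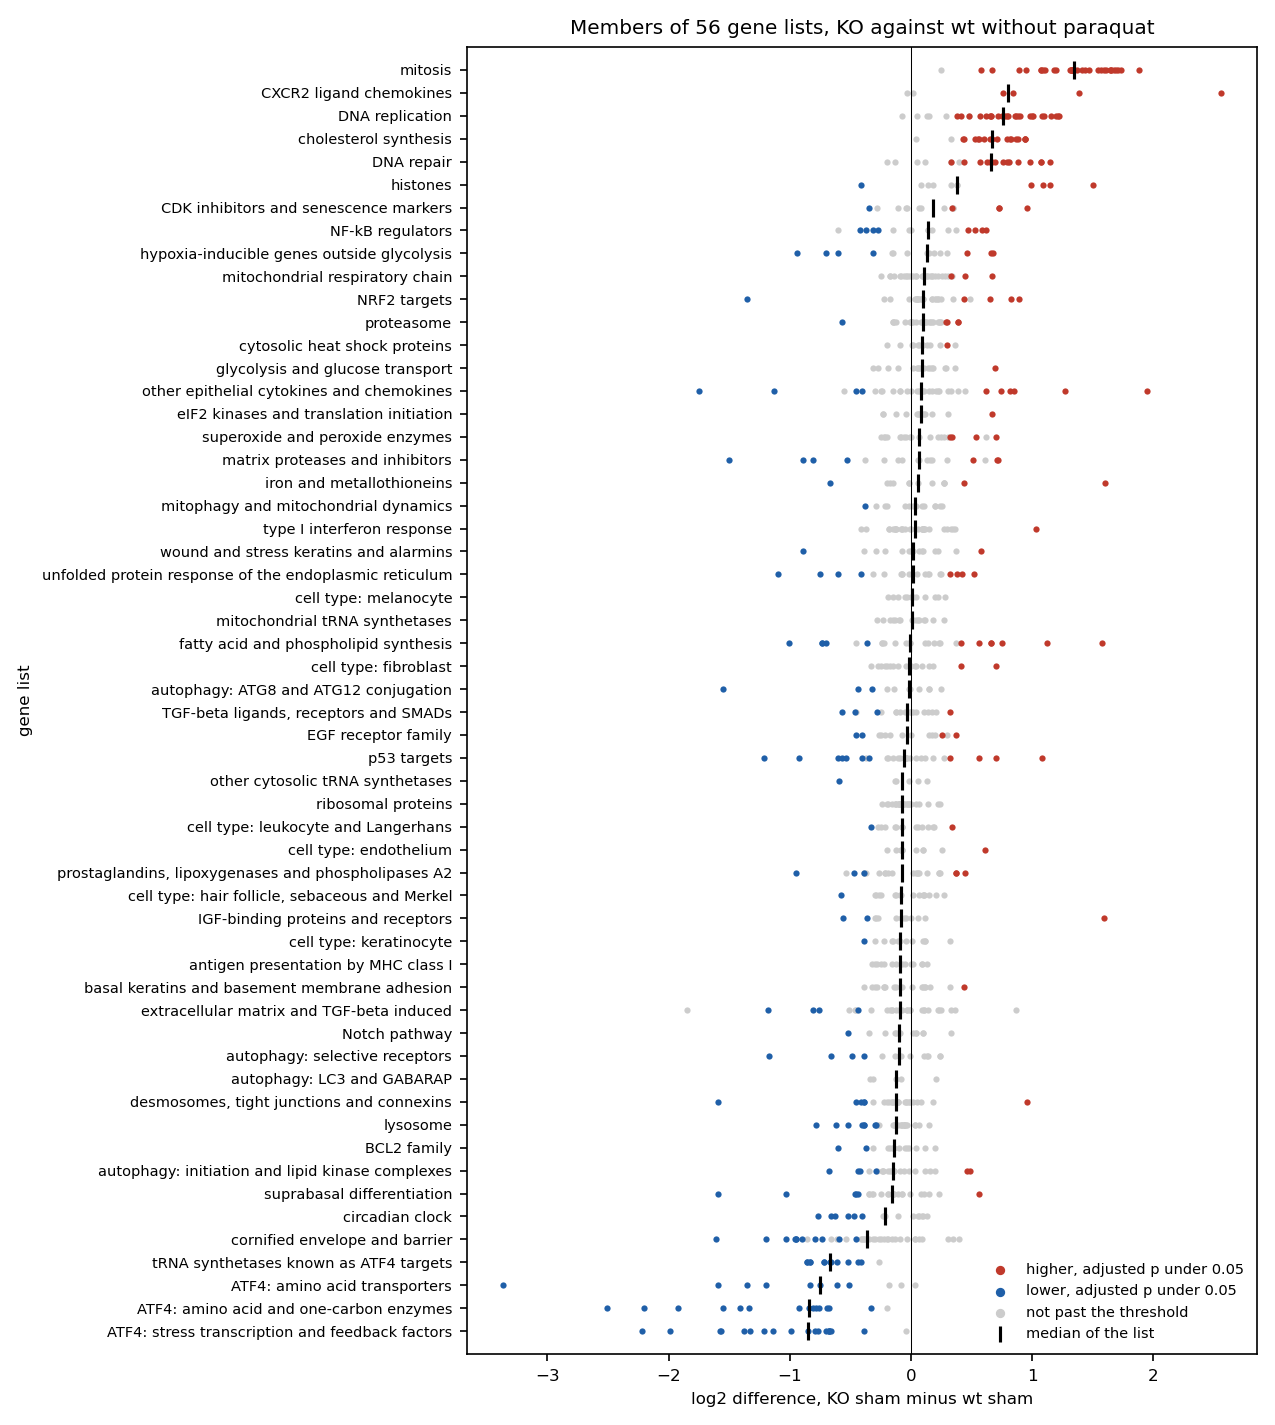
Each row is 1 of 56 gene lists and each point a measured member, placed by its log2 difference KO sham minus wt sham; red and blue points passed an adjusted p of 0.05 upward and downward, and the black bar is the list's median. Mitosis (median 1.35), CXCR2 ligands (0.80) and DNA replication (0.76) stand at the top, the 4 ATF4-linked lists (-0.67 to -0.85) at the bottom, and most other lists have a median close to 0.

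Few of these genotype differences were called under paraquat. There, 122 genes (0.55%) differed between KO and wt, 22 higher (0.0992%) and 100 lower (0.451%). The paraquat and sham comparisons share no arrays. Of the 2273 genes called without paraquat, 35 were called in the same direction under it, 14 higher and 21 lower, and 3 in the opposite direction. Called or not, 1529 of the 2273 had the same sign under paraquat. The difference between the 2 genotype differences passed the threshold for 508 genes (2.29%), 309 upward (1.39%) and 199 downward (0.897%), of which 437 were among the 2273. For the rest of the 2273 a change of the genotype difference by paraquat was not shown. Of the 58 ATF4-linked genes and synthetases limma called 0 under paraquat, with 8 at an unadjusted p under 0.05, and 40 passed the test of the difference. Slc7a3 read 39, 35 and 40 in wt and 34, 35 and 37 in KO arrays under paraquat, levels close to those of KO cells without it. Trib3 read 84, 76 and 86 in wt and 85, 101 and 94 in KO arrays. Of the 89 genes of mitosis, replication and repair limma called 0 under paraquat, with 15 at an unadjusted p under 0.05. Their fall in genotype difference passed the test for 6 mitosis, 6 replication and 1 repair genes. For most of them a change of the genotype difference by paraquat was therefore not shown.

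Barrier genes were lower in KO cells under paraquat too. Of the 39, 10 fell there (median -0.77), and for 5 the genotype difference was further below 0 than without paraquat by the test of the difference. Cdsn read 5310, 5565 and 4591 in wt and 3175, 2987 and 2306 in KO arrays after paraquat, and Flg 509, 611 and 430 against 277, 241 and 259. The log2 differences of Flg were -0.90 without and -0.98 with paraquat, and those of Lor -0.95 and -0.91. Atg7 differed by -1.55 and -1.87, a change of -0.32 that did not pass the test (adjusted p 0.467). Ccr3 was higher in KO in both treatments, at 2.37 and 1.44. The lysosomal and melanosomal glycoprotein gene Gpnmb was lower in both, at -1.20 and -0.93, and the lipid carrier gene Mfsd2a higher, at 1.26 and 0.53. The 3 genes called in opposite directions were Psca, Lin9 and Lce6a. Psca, a surface protein of differentiating epidermis, read 86, 79 and 58 in wt and 132, 106 and 167 in KO arrays without paraquat. With it, Psca read 1973, 1886 and 1780 in wt and 1017, 1016 and 947 in KO arrays. Gpnmb, Mfsd2a, Psca, Lin9 and Lce6a were chosen after their values were seen.

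**Figure D5:**
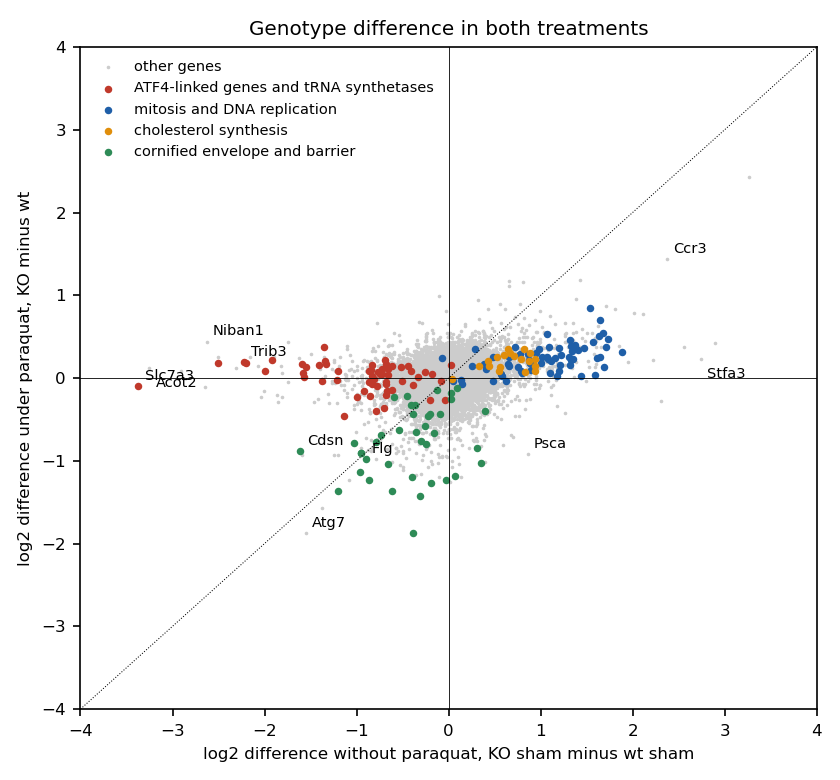
Each point is 1 of the 22180 genes, with the log2 difference KO minus wt without paraquat on the x axis and under paraquat on the y axis; the dotted line marks equal differences. ATF4-linked genes (red) and the mitosis and replication genes (blue) spread along the x axis, with Slc7a3 at -3.37 and -0.10, while Atg7 (-1.55 and -1.87) and many barrier genes (green), such as Flg (-0.90 and -0.98), lie below 0 on both.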

How the data were processed

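Total RNA of 12 keratinocyte cultures was labelled with biotin and hybridised to Affymetrix arrays, 1 per culture. Per the submitters' processing notes, RMA was run in version 1.3.1.187 of Affymetrix Expression Console, and the authors deposited the resulting intensity of each probe set. These intensities, whole numbers between 3 and 17695 with like medians in every array, were taken to be on a linear scale and turned into log2 here. Genome build, filters and scan batches were not stated in the labels, and rounding makes the log2 of dim genes coarse.

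Of 41345 probe sets 23521 carried 1 gene symbol, 1814 several and 16010 none. Identifiers of 23328 matched a RefSeq mouse gene table (GRCm38.p6), and 0 symbols changed. In the 1082 genes with several probe sets the one with the highest mean stood for the gene, leaving 22180 genes with no filter on signal. A model with 1 mean for each of 4 groups was fitted to all 12 arrays with limma 3.58.1 (lmFit, eBayes) in R 4.3.3, so the groups share an estimate of the spread. Benjamini-Hochberg adjustment ran over all genes, with a threshold of 0.05, and tests were 2-sided.

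The comparison and the 56 gene lists (1180 entries, 1074 measured, 17 of them under an older symbol) were chosen with earlier results of these data known, and a list's count is no independent evidence of its direction. Named genes were Atg7, the 15 largest rises and 15 largest falls among called genes whose arrays do not overlap, without predicted, clone-named, small RNA and receptor-segment genes, up to 6 called members of each list by p or the 2 smallest p as values, and other list members by value. Motifs were searched in RefSeq windows of 250 bases before to 50 after the start. In simulated data of this comparison over 22180 genes, 96 of 100 genes changed 2-fold and 76 of 100 changed 1.5-fold were recovered, with 9 false calls. The changed genes were drawn from those above the median signal, and the noise was independent between arrays. Recovery of dim genes and the effect of a deviating array such as wt sham 2 were therefore not simulated. Correlations of deviations between arrays of the same number, from -0.07 to 0.09, did not meet the bar of 0.1 for treating the numbers as pairs. Xist and Eif2s3y set both KO arrays numbered 3 apart from the others, and whether these share a donor is not known. Alternatives were a second quantile normalization, median centring, a filter on dim genes, the mean over or every probe set, a variance trend, array weights, the 6 sham arrays alone, a replicate block, a test above 1.5-fold, 16 added before the log2, and leaving out each sham array. Added after seeing the data were 16 added with the 6 sham arrays alone or without wt sham 2, and genotype with number as a random block. The number of arrays limits the precision.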

Additional observations from a re-analysis of the deposited data

Results flagged for a closer look

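Of the genes chosen by the naming rule, 87 had a genotype difference that changed between the treatments, by limma's test of the difference itself at an adjusted p under 0.05. The values in parentheses are the log2 difference KO minus wt under paraquat minus that without paraquat, so a value above 0 means that KO was nearer to or above wt under paraquat. The genotype difference without paraquat, by which these genes were chosen, also enters the subtraction. Among ATF4-linked genes the value was above 0 for Slc7a3 (3.27), Aldh1l2 (2.70), Trib3 (2.40), Pck2 (2.38), Fgf21 (2.08), Stc2 (1.57), Sesn2 (1.19), Atf5 (1.65), Chac1 (1.35), Jdp2 (1.5), Slc7a5 (1.75), Slc7a11 (1.73), Slc1a4 (1.29) and Slc3a2 (0.80). The same held for Slc1a5 (0.76), Aldh18a1 (1.55), Mthfd2 (1.57), Cth (2.14), Shmt2 (0.76), Xpot (0.94), Gars (0.83), Nars (0.99), Sars (0.77), Lars (0.77) and Wars (0.81). Among the other genes it was above 0 for Acot2 (3.37), B4galnt2 (2.98), Fam171b (2.54), Niban1 (3.07), Car6 (2.77), Reep6 (2.43), Heg1 (2.41), Cyb5r1 (2.21), Slc43a3 (1.81), Rgn (1.85), Ulk2 (0.97), Sqstm1 (1.09), Hexa (0.61) and Naglu (0.91). The same held for Psmc2 (0.70), Rars (0.65), Atf6 (0.92), Sel1l (0.81), Ero1a (0.76), Bbc3 (0.53), Zmat3 (0.58), Trp53inp1 (0.52), Fn1 (1.43), Tgfb1 (0.68), Mmp13 (1.79), Mmp2 (0.53), Mmp9 (1.03) and Il23a (1.70). The same held for Vegfa (0.94), Fads3 (0.96), Epgn (0.74) and Ciart (0.95). It was below 0 for the cell division and repair genes Hmmr (-1.26), Cdca8 (-0.91), Kif4 (-1.11), Knl1 (-1.56), Orc1 (-0.65), Mcm4 (-0.84), Rrm2 (-0.92), Cdc6 (-1.03), Mcm7 (-0.80) and Fancb (-0.88). It was also below 0 for Csta3 (-2.47), Stfa3 (-2.51), Cxcl3 (-2.19), Clca3a2 (-2.59), Depdc1a (-2.00), Steap4 (-1.35), Il24 (-1.76), Cd80 (-1.12), Cxcl5 (-0.83), Cxcl1 (-0.60), Il18 (-0.96), Gsta4 (-1.15), Tfrc (-1.43) and Egln3 (-0.96). The same held for Pmvk (-0.67), Cyp51 (-0.79), Insig1 (-0.72), Elovl6 (-1.29), Acly (-0.57) and Igfbp3 (-1.47).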

How the results depend on the processing

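The 2273 genes called between the genotypes without paraquat became 976 on the 6 sham arrays alone (450 higher, 526 lower), 1432 with 16 added to those (609 and 823), and 70 when a change above 1.5-fold was tested (22 and 48). Leaving out each sham array gave 1418 to 2363 calls, with 651 to 1086 higher and 767 to 1277 lower, the lowest without wt sham 2 and the highest without wt sham 1. Under paraquat the 122 calls became 228 with the filter on dim genes, 223 with a variance trend, 249 with array weights, 231 with 16 added, 348 with 16 added and without wt sham 2, and 2 above 1.5-fold. Leaving out each sham array gave 88 to 171 there. The 508 genes of the difference became 894 with the filter, 783 with the trend, 882 with 16 added and 24 above 1.5-fold, and leaving out each sham array gave 280 to 700. With the replicate number as a block, 913 genes were higher and 1101 lower, and as a random block 1015 and 1255. The labels do not say that the numbers pair the arrays. Atg7 kept its direction and call in every alternative, at -1.32 to -1.60. Of 231 named results, 0 reversed under any alternative, though leaving out 1 array cannot reverse a gene whose arrays do not overlap. Of the 231, 43 lost their call without wt sham 2, 81 on the 6 sham arrays alone and 177 above 1.5-fold. Of the latter test's calls within lists, 7 of 18 stress factors, 4 of 8 transporters, 6 of 14 enzymes, 0 of 12 genes of tRNA charging, 1 of 34 mitosis and 0 of 17 cholesterol genes were left. Genes under the array median of 42 to 45 were not shown to be above background, which was not measured.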

Other observations

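Further gene groups held scattered genotype differences without paraquat, with log2 KO minus wt in parentheses. Over all genes 4.58% were higher and 5.67% lower, and 10.2% were called in either direction. The glycolysis, heat shock and Notch lists, with 1 call each, held smaller shares than that 10.2%. Of 15 genes induced by hypoxia outside glycolysis 3 rose, the prolyl hydroxylases P4ha1 (0.66) and Egln3 (0.68) and the mitochondrial gene Higd1a (0.46), and 4 fell, Vegfa and Ndrg1 (-0.70) among them. Of 18 genes of glucose transport and glycolysis the lactate exporter Slc16a3 (0.69) was called. Of 24 genes of eicosanoid metabolism 3 rose and 3 fell, led by the lipoxygenase Alox12 (-0.95), and without wt sham 2 the rises were 1. Of 21 superoxide and peroxide enzymes 4 rose, with Txnip (0.70), an inhibitor of thioredoxin, and the glutathione peroxidase Gpx1 (0.54) left without wt sham 2. Of 15 members of the BCL2 family 2 fell, the p53-induced killer Bbc3 (-0.60) and Bcl2l1 (-0.37), the latter not without wt sham 2 (adjusted p 0.11) or any of the KO arrays (0.0557 to 0.0846). Among 19 TGF-beta ligands, receptors and SMADs 3 fell and 1 rose, and without wt sham 2 the ligand Tgfb1 (-0.46) was the 1 left. Of 26 junction genes 5 fell and 1 rose, and 3 fell without wt sham 2. Of 14 genes of the EGF receptor family 2 rose and 2 fell, and none of these 4 passed the threshold without wt sham 2. Heat shock proteins held 1 rise among 14, Dnajb1 (0.30). It was not called without wt sham 1, wt sham 3, KO sham 1 or KO sham 3 (adjusted p 0.055 to 0.106). Of the 14, 12 had a difference above 0, against 10467 of all 22180 genes. The Notch pathway held 1 fall among 16, Maml1 (-0.52). Sesn2 and Bbc3 each stand in more than 1 list.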
